A study of Mus musculus with 12 samples.

Results

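The tumour necrosis factor (TNF) superfamily and its receptors were read from a panel of 770 genes counted in 12 mouse liver tumour samples. Members were taken by name: every gene beginning with Tnfsf or Tnfrsf, together with Tnf, Lta, Ltb, Ltbr, Cd27, Cd70, Cd40, Cd40lg and Fas. This gave 33 of the 770 genes, of which 15 encode ligands and 18 encode receptors. Testing required an average count of 20 or more, which 26 members met (11 ligands and 15 receptors) and 635 genes of the whole panel. The remaining 7, which stayed untested, were Cd40lg, Lta, Tnfsf18, Tnfsf8, Tnfrsf13c, Tnfrsf17 and Tnfrsf8.

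The study asks whether a corticosteroid given beforehand changes how checkpoint antibodies act against hepatocellular carcinoma in mice. All samples were primary tumour tissue preserved in formalin and paraffin, in 4 groups of 3. The first group had received isotype antibody, a control antibody with no checkpoint target. The second had received dICB, which combines anti-PD-1 with anti-CTLA4 antibody. The other groups had received dICB together with Dexa at 10 mg or at 200 mg. No group had Dexa alone, so Dexa can be set only against dICB or against isotype. The labels do not spell Dexa out and give the doses without body weight or schedule. Strain, age and the origin of the tumours are not given there.

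TNF superfamily ligands act mostly as trimers at the cell surface or after release, and each binds 1 or more receptors of the family. Receptors that carry a death domain, such as Fas, Tnfrsf1a and Tnfrsf10b, can start apoptosis through the adaptor Fadd and caspases. The others recruit TRAF adaptors and switch on NF-kB, either through the canonical route or, from Ltbr, Cd40, Tnfrsf12a and Tnfrsf11a among others, also through a non-canonical route in which the Nfkb2 product is processed and pairs with Relb. In tumours the family is known for killing by TRAIL and Fas ligand, for costimulation of T cells through Tnfrsf9, Tnfrsf4, Tnfrsf18 and Cd27, and for licensing of antigen-presenting cells through Cd40. Glucocorticoids are textbook inhibitors of NF-kB-driven transcription, Tnf included.

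Promoters are shown for 3 members whose levels lay apart between isotype and dICB with Dexa at 200 mg. They are Ltb and Ltbr, a ligand and its receptor that were both lower, and Tnfrsf14, a receptor that was higher. Sequences are from RefSeq for the GRCm38.p6 assembly and run 5′ to 3′ on the strand of the gene. Each spans 250 bases before an annotated start and 50 bases after it. Capitals mark matches on either strand to the NF-kB consensus and to GGGCGG, a site bound by Sp-family factors. Ltb lies at chr17:35194257-35194556 on the plus strand, Ltbr at chr6:125313836-125314135 on the minus strand and Tnfrsf14 at chr4:154928028-154928327 on the minus strand. The Ltb and Ltbr windows span the 5′ end of the gene. The Tnfrsf14 window lies wholly inside its gene (chr4:154918487-154928620), whose 5′ end was not examined.
Ltb: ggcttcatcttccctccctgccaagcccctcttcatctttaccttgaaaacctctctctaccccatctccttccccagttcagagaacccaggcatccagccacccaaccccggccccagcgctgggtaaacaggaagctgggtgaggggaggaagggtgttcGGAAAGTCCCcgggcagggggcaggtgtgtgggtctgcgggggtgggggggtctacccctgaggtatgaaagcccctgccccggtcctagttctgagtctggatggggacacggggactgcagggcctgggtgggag
Ltbr: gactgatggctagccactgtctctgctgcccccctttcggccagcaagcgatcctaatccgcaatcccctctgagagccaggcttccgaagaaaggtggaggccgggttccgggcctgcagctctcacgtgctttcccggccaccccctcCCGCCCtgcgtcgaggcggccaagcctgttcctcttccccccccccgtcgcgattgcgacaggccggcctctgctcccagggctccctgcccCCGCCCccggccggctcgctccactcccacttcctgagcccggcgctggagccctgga
Tnfrsf14: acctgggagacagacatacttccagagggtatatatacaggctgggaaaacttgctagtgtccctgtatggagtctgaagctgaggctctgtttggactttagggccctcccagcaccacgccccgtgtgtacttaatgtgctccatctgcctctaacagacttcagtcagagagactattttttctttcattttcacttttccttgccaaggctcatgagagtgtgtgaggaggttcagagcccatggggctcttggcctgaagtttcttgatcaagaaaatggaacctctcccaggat
The Ltb window held 1 NF-kB match, 87 bases before the start on the opposite strand. In the Ltbr window GGGCGG stood at 100 and at 8 bases before the start, again on the opposite strand. The Tnfrsf14 window, which does not reach the 5′ end of its gene, held neither. A promoter was found for 26 of the 33 members, 28 promoters in all. The NF-kB consensus was in 3 of the 28 (10.7%), against 8.46% of 32851 mouse promoters of the same length. GGGCGG was in 11 (39.3%, against 35.7%). TATAAA, the sequence of the TATA box, was in 5 (17.9%, against 13.6%), counted at any position and so not always where a TATA box lies. TGTTCT, the core hexamer of glucocorticoid receptor elements, was in 0 of the 28 (0%), against 19% of all promoters. All 4 motifs were searched on both strands, and they describe these 300 bases alone.

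Several members neighbour each other in the genome. By the order of genes in GRCm38.p6, 17 members formed 9 pairs with at most 2 genes between them. Ltb, Tnf and Lta stand together on chromosome 17, as do Cd70 and Tnfsf14. Tnfsf4 is next to Tnfsf18 on chromosome 1, Tnfsf12 close to Tnfsf13 on chromosome 11, and Ltbr close to Tnfrsf1a on chromosome 6. On chromosome 4 the pairs were Tnfrsf4 with Tnfrsf18, Tnfrsf1b with Tnfrsf8, and Tnfsf15 with Tnfsf8. Ltbr and Tnfrsf1a were both above background in all 12 samples, whereas of the pair on chromosome 1 Tnfsf4 was so in all 12 and Tnfsf18 in none.

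Each sample held between 252994 and 428944 counts in all its genes. Counts were scaled with TMM factors to a mean effective library of 357600, and all levels below are such normalised counts. Replicates did not repeat 1 library: the closest pair of a group still had a chi-square of 3.512 for each degree of freedom, where counting error alone gives about 1. Whether each came from its own animal is not stated, and the p-values rest on sample-to-sample spread that may be technical. The labels also carry a code, ICI7 or ICI10, whose meaning is not stated. It is ICI7 in all isotype samples and ICI10 in all dICB samples, and both occur in each Dexa group. The 6 hepatocyte genes of the panel (Hamp, C8a, C8b, C9, Mbl2 and Crp) were above background in no sample, although the tissue is labelled hepatocellular carcinoma. The 20 housekeeping genes moved between groups: 19 of them were lower with Dexa at 200 mg than in isotype, with a median log2 fold change of -0.56. Against isotype, 19 were also lower in dICB (median -0.49) and 17 with Dexa at 10 mg (median -0.32). From dICB to Dexa at 200 mg their median was -0.08. Between Dexa at 200 mg and isotype, scaling to them in place of TMM moved the median of all tested genes from 0.03 to 0.55. Scaling to the positive control probes moved it to 0.34. In bulk tissue, fewer cells of a type and less RNA per cell cannot be told apart.

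Background was set per sample by its 8 negative control probes, which averaged 11.1 to 24.4 counts. Their mean plus 2 SD, 18.1 to 38.1 counts, is called the limit here. Receptors were above it more often than ligands. In all 12 samples, 13 of the 33 members (39.4%) exceeded the limit, against 496 of all 770 genes (64.4%). These were 4 of 15 ligands (26.7%), namely Ltb, Tnfsf10, Tnfsf12 and Tnfsf4. They were also 9 of 18 receptors (50%): Cd40, Fas, Ltbr, Tnfrsf10b, Tnfrsf11a, Tnfrsf12a, Tnfrsf14, Tnfrsf1a and Tnfrsf1b. In no sample were 6 members above it, the ligands Cd40lg, Tnfsf18 and Tnfsf8 and the receptors Tnfrsf13c, Tnfrsf17 and Tnfrsf8. Another 14 were above it in some samples. Among them Tnfsf13b and Tnfrsf18 exceeded it in 11, Tnf in 10, Tnfrsf9 in 9, Tnfsf11 in 7, Cd27 in 6, and Tnfsf15 and Tnfrsf11b in 5. Tnfsf14 and Tnfrsf4 exceeded it in 3, Lta in 2, and Cd70, Tnfsf13 and Tnfrsf13b in 1. Background counts were left in the values, which affects the fold changes of these members most. For a member at the limit, a level was not measurable at this depth and its absence was not shown.

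**Figure D1:**
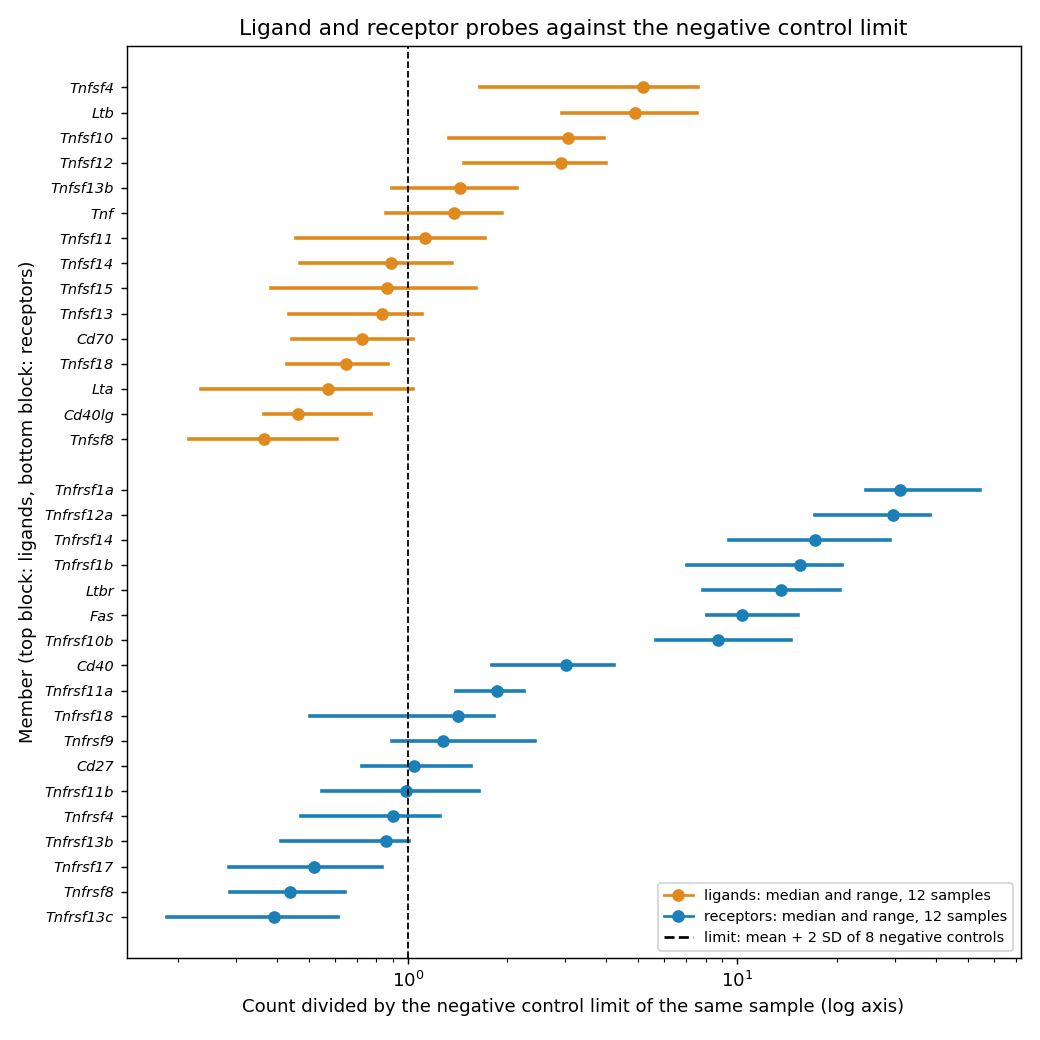
Count of each member divided by its sample's limit, the mean plus 2 SD of 8 negative control probes, on a log axis. Points are medians and bars the range over 12 samples, with ligands in the top block and receptors in the bottom block. The bars of 13 members lie wholly right of the dashed line at 1 and those of 6 wholly left. Probes differ in capture, so rows do not rank genes.

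Against isotype, 1 member changed past the threshold of an adjusted p of 0.05: Tnfrsf10b, the TRAIL receptor, fell with dICB plus Dexa at 200 mg. In that comparison the edgeR quasi-likelihood test, with Benjamini-Hochberg adjustment over all 635 genes, called 84 genes (13.2%). They were 45 lower (7.09%) and 39 higher (6.14%), so 1 of 26 members (3.85%) was below the background share. At an unadjusted p under 0.05, 9 members (34.6%) passed, beside 32.3% of all genes. Groups did not overlap for 9 members (34.6%), beside 44.6% of all genes. The member shares were near or under those of the panel, and 14 of 26 members had a positive fold change. With housekeeping or positive control factors 19 of 26 did, and the members that changed sign were Cd70, Fas, Tnfrsf13b, Tnfrsf1a and Tnfsf15. With housekeeping factors 5 members passed, Tnfrsf11a, Tnfrsf14, Tnfrsf1b, Tnfrsf9 and Tnfsf10, all higher, and Tnfrsf10b did not. In that fit 161 of all genes were called higher and 5 lower. Relative to the median of all genes, Cd70 and Tnfrsf4 changed sign with the scaling.

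Between dICB and isotype 0 of 26 members passed the adjusted threshold, as did 0% of all genes. At an unadjusted p under 0.05, 5 members (19.2%) passed, against 20% of all genes: Ltb, Tnfrsf10b, Tnfrsf11b and Tnfrsf13b were lower in dICB and Tnfrsf9 was higher. Only Ltb, Tnfrsf10b and Tnfrsf13b had groups without overlap (11.5%), against 22.7% of all genes. DESeq2 called 1 member here, Tnfrsf10b, and limma, run after subtraction of the negative control mean, called 0. Housekeeping factors called Tnfrsf9, which was higher (1.25, edgeR adjusted p of 0.0476), as 45 of all genes were. The sign of 9 members changed with the scaling, and relative to the median of all genes that of 0. Since every isotype sample carries ICI7 and every dICB sample ICI10, the code and dICB cannot be told apart within this comparison.

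Dexa with dICB was compared with dICB alone at each dose, and no member passed at either (0% of all genes at 10 mg and 0% at 200 mg, edgeR). At 10 mg, 1 member (3.85%) had an unadjusted p under 0.05, Tnfrsf10b, which was higher with Dexa, beside 9.45% of all genes. Tnf alone had groups without overlap, beside 7.87% of all genes. At 200 mg, 0 members had an unadjusted p under 0.05, beside 8.5% of all genes, and Ltbr alone had groups without overlap (3.85%), beside 8.82%. Scaling changed the sign of 13 members at 10 mg and of 11 at 200 mg. Relative to the median of all genes, which moves with the scaling, it changed that of 0 and 1 (Ltb). DESeq2 and limma called no member at either dose.

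The doses themselves were set against each other, and again 0 members passed (0% of all genes). Ltbr and Tnfrsf10b were lower at 200 mg at an unadjusted p under 0.05 (7.69%, beside 12% of all genes). Groups did not overlap for 5 members (19.2%, beside 21.7%): Tnf and Tnfsf11 were higher at 200 mg, and Tnfsf13b, Ltbr and Tnfrsf10b were lower. Between Dexa at 10 mg and isotype no member passed (0% of all genes). None had an unadjusted p under 0.05 (8.35% of all genes) or groups without overlap (13.1%). Over all 4 groups together 0 members passed, beside 0.787% of all genes. Ltbr and Tnfrsf10b had an unadjusted p under 0.05 there (7.69%, beside 21.7%). DESeq2 called Tnfrsf10b over the 4 groups, and no member between the doses or between 10 mg and isotype. The 3 comparisons with isotype share its samples, as those with dICB share theirs.

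With all tested members counted, the medians of ligands and of receptors lay near that of the panel. Between Dexa at 200 mg and isotype the median log2 fold change was 0.10 over 11 ligands and 0.02 over 15 receptors, beside 0.03 over all genes. Between dICB and isotype it was -0.01 for ligands, -0.08 for receptors and 0.03 for all genes. From dICB to Dexa at 10 mg ligands had -0.05 and receptors 0.12, beside -0.01 over all genes, and from dICB to Dexa at 200 mg they had -0.02 and -0.12, beside -0.02. The set medians of single samples varied within groups by an SD of 0.0985 for ligands and 0.116 for receptors. The furthest of these medians from that of the panel was the receptors' from dICB to Dexa at 10 mg. The ligand medians changed with the members counted. Over the 4 ligands above the limit in all samples they were -0.31 between dICB and isotype and -0.26 between Dexa at 200 mg and isotype. A mean of 50 counts or more leaves the same 4 ligands, so its -0.27 and -0.24 repeat the same genes. Of the 4, Ltb (-0.60 and -0.62) and Tnfsf4 (-0.75 and -0.91) were lower in these comparisons. Tnfsf10 (0.36 and 0.57) was higher, and Tnfsf12 (-0.01 and 0.10) was nearly level. Single members ranged further in both directions, from -0.91 for Tnfsf4 to 0.75 for Tnfrsf1b between Dexa at 200 mg and isotype.

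**Figure D2:**
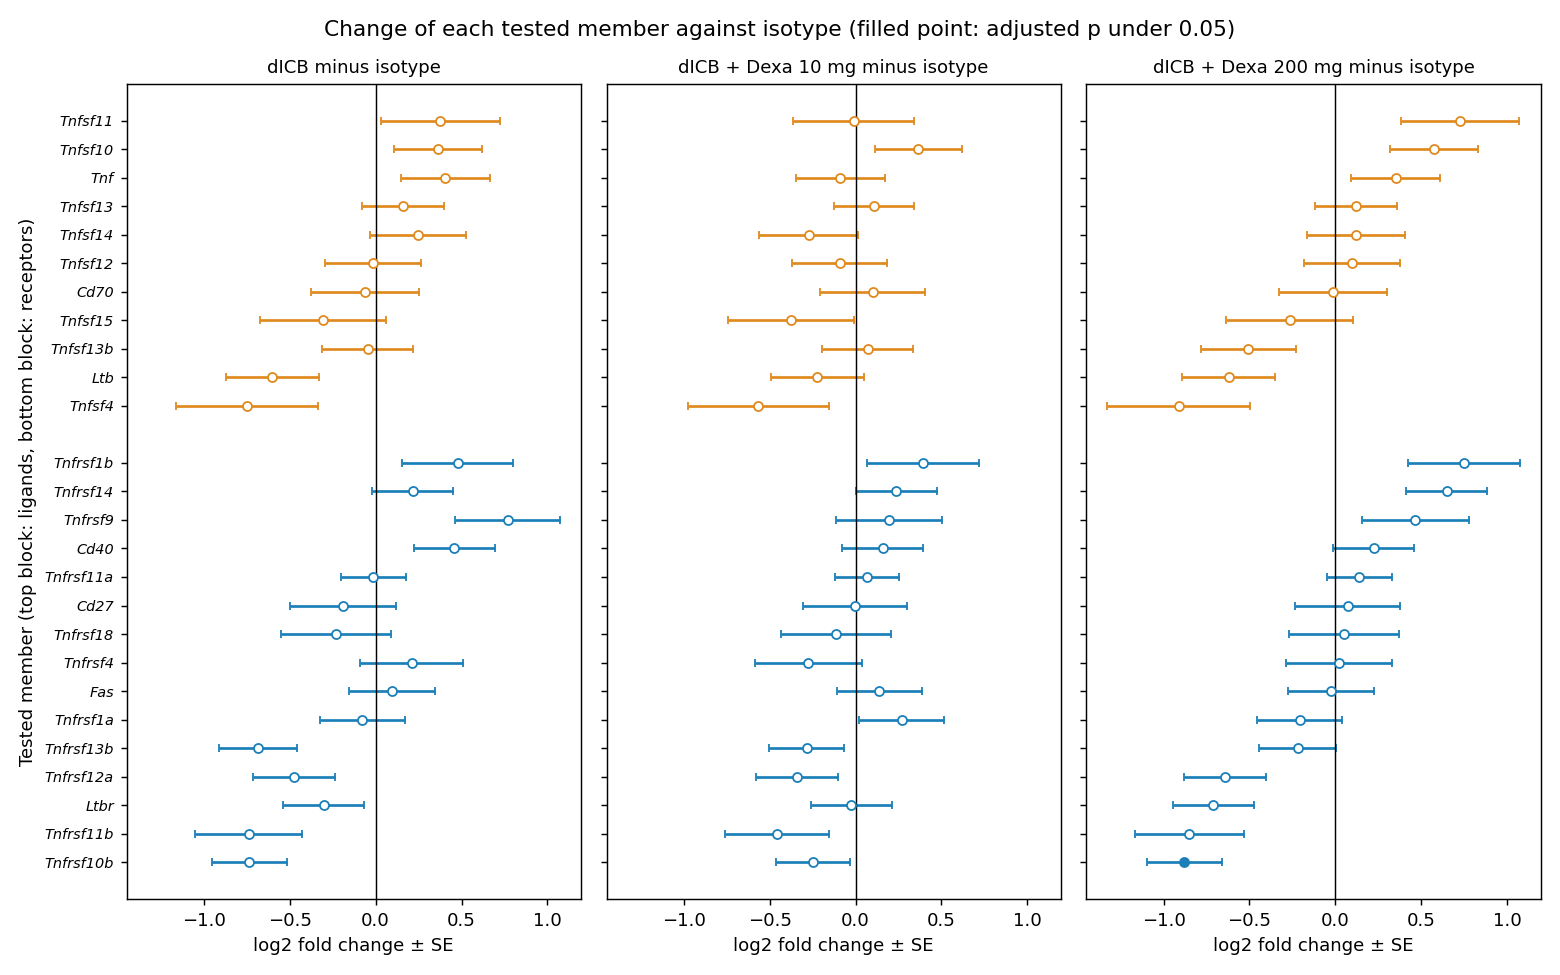
Log2 fold change with its standard error for 26 tested members in dICB, in dICB with Dexa at 10 mg and in dICB with Dexa at 200 mg, each against isotype, from edgeR with TMM scaling. Ligands are in the top block and receptors in the bottom block, ordered by the right panel. The filled point is Tnfrsf10b at -0.88 in the right panel, the only adjusted p under 0.05.

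Tnfrsf10b is the only death receptor for TRAIL in mice. Its level was 356.6, 393.3 and 340.8 in the isotype samples. It was 222.8, 163.7 and 269.6 in dICB, and 256.8, 359.4 and 302.2 with Dexa at 10 mg. With Dexa at 200 mg it was 204.5, 207.1 and 181.3. Every dICB and every 200 mg sample was below every isotype sample, while the 10 mg samples overlapped with both isotype and dICB. Group means were 363.6 ± 26.9, 218.7 ± 53.0, 306.1 ± 51.4 and 197.6 ± 14.2 (SD, n = 3 each). Against isotype the log2 fold change was -0.88 ± 0.22 (SE) with Dexa at 200 mg, with an edgeR adjusted p of 0.0225, and -0.74 ± 0.22 in dICB, with an adjusted p of 0.105. From dICB to Dexa at 10 mg it was 0.49 ± 0.22 (adjusted p of 0.491 from edgeR), and from Dexa at 10 mg to 200 mg -0.63 ± 0.22 (adjusted p of 0.299).

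The size of the Tnfrsf10b difference varied little with the samples used, while its side of the threshold did not hold throughout. Leaving out each sample in turn gave -0.94 to -0.81 between Dexa at 200 mg and isotype. The adjusted p was above 0.05 without isotype sample 2 (0.105), isotype sample 3 (0.0815), or any 200 mg sample (0.0562, 0.0661 and 0.0916 without sample 1, 2 and 3). With housekeeping factors the log2 fold change was -0.35 (adjusted p of 0.289) and with positive control factors -0.56 (adjusted p of 0.224). Relative to the median of all genes it was -0.91 with TMM or DESeq2 scaling, and -0.90 with either of those factors. Among ICI7 samples alone, where the 200 mg group has only sample 3, it was -1.03 (edgeR adjusted p of 0.0257), and with the code as a covariate -1.06 (adjusted p of 0.0473). The lone sample is then assumed to vary like the other groups.

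Epcam, an epithelial adhesion molecule, was low in the same groups as Tnfrsf10b. Epcam averaged 225.1 in isotype, 125.0 in dICB, 187.5 with Dexa at 10 mg and 125.9 at 200 mg. Its log2 fold change between Dexa at 200 mg and isotype was -0.84 ± 0.23 (edgeR adjusted p of 0.0302). The sum of 4 epithelial genes (Epcam, Cdh1, Muc1 and Egfr, with Muc1 never above the limit) was 621.3 to 776.1 in isotype and 374.9 to 411.9 at 200 mg. It was 352.7 to 643.4 in dICB and 513.5 to 774.6 at 10 mg, both overlapping with isotype. Lower levels were not particular to epithelial genes: 19 of 20 housekeeping genes were lower than in isotype both in dICB and at 200 mg. The part of epithelial content in the Tnfrsf10b difference was not tested.

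The ligand TRAIL, Tnfsf10, was above the limit throughout and went the other way. It was 76.95, 71.32 and 48.2 in isotype, and 94.58, 100 and 98.67 with Dexa at 200 mg. In dICB it was 67.74, 96.11 and 89.36, and at 10 mg 77.03, 111.7 and 65.31. The 200 mg samples lay above all isotype samples and close together, while dICB and 10 mg overlapped with isotype. The log2 fold change between Dexa at 200 mg and isotype was 0.57 ± 0.26, with an edgeR adjusted p of 0.143.

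Fas, the death receptor for Fas ligand, was nearly level. It was 321.0, 309.4 and 303.8 in isotype and 460.8, 274.5 and 262.1 in dICB. Dexa samples had 310.9, 419.9 and 297.8 at 10 mg and 242.8, 341.0 and 335.0 at 200 mg. The highest values came from dICB sample 1 and from 10 mg sample 2, and all groups overlapped. From isotype to dICB the log2 fold change was 0.10 ± 0.25 (-0.23 without dICB sample 1). Fasl, its ligand, is outside the naming rule and averaged 42.2, 41.8, 34.8 and 38.8 in the same order of groups.

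Tnf itself, the founding ligand, was close to background. It was 40.35, 27.27 and 38.11 in isotype and 57.94, 41.54 and 40.21 in dICB. Values with Dexa were 33.93, 32.59 and 33.09 at 10 mg, and 36.64, 36.63 and 61.96 at 200 mg. All 10 mg samples were below all dICB and all 200 mg samples, and the isotype samples overlapped with every group. From dICB to Dexa at 10 mg the log2 fold change was -0.49 ± 0.26 (edgeR adjusted p of 0.564) and -0.27 without dICB sample 1, which held the highest dICB value. In that sample the sum of 9 neutrophil genes was 18300, against 338.9 to 717.6 in the other 11 samples. Ltf, Mpo, Elane and Camp of that list were above the limit in none. From dICB to Dexa at 200 mg the log2 fold change of Tnf was -0.06 ± 0.25 (edgeR adjusted p of 0.962).

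Of the receptors for Tnf, Tnfrsf1a carries a death domain and Tnfrsf1b, found mainly on immune and endothelial cells, does not. Tnfrsf1a was 787.3 to 999.2 in 11 samples and 1719 in 10 mg sample 2. Its 200 mg samples were all below its isotype samples, at a log2 fold change of -0.21 ± 0.25 (edgeR adjusted p of 0.597). Tnfrsf1b was 400.7, 245.4 and 254.5 in isotype, and 345.1, 528.4 and 641.4 with Dexa at 200 mg. In dICB it was 528.6, 473.2 and 250.2, and at 10 mg 432.8, 457.1 and 294.3. The groups overlapped, with 1 high isotype sample and 1 low sample in each other group. For Tnfrsf1b the log2 fold change from isotype to Dexa at 200 mg was 0.75 ± 0.33 (edgeR adjusted p of 0.132). The sum of 8 macrophage genes was 1256 to 2025 in isotype, 1935 to 3209 in dICB, 1647 to 2202 at 10 mg and 2391 to 2989 at 200 mg, each gene being above the limit in at least 1 sample. Its part in the Tnfrsf1b values was not tested.

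Lymphotoxin beta, Ltb, is anchored at the membrane with lymphotoxin alpha and signals through Ltbr, which organises lymphoid tissue. Ltb was 184.9, 180.4 and 176.0 in isotype. It was 148.0, 112.4 and 95.31 in dICB, 191.7, 106.1 and 166.3 with Dexa at 10 mg, and 125.3, 84.54 and 141.1 with Dexa at 200 mg. The dICB and 200 mg samples were all below the isotype samples, and the 10 mg group straddled them. The log2 fold change was -0.60 ± 0.27 in dICB (edgeR adjusted p of 0.235) and -0.62 ± 0.27 with Dexa at 200 mg (adjusted p of 0.134), each against isotype.

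Ltbr had its lowest values at the higher dose. It was 401.7, 549.6 and 503.3 in isotype and 362.8, 377.1 and 440.8 in dICB. Dexa samples held 345.7, 647.1 and 438.0 at 10 mg, and 311.0, 325.5 and 252.4 at 200 mg. All 200 mg samples were below every sample of the other groups. The log2 fold change was -0.71 ± 0.24 against isotype (edgeR adjusted p of 0.0662), -0.41 ± 0.24 against dICB (adjusted p of 0.595) and -0.69 ± 0.24 against 10 mg (adjusted p of 0.299). Sample 2 of the 10 mg group was the highest of all. Without it the value against 10 mg was -0.41 and that against isotype -0.74, the latter with an edgeR adjusted p of 0.0167. Among ICI7 samples alone the value against isotype was -0.97 (edgeR adjusted p of 0.0385). With housekeeping factors it was -0.16 (edgeR adjusted p of 0.635) and with positive control factors -0.36 (0.405). Without isotype sample 2 or 3 the edgeR adjusted p was 0.236 and 0.192.

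The herpesvirus entry mediator Tnfrsf14 binds LIGHT (Tnfsf14) and lymphotoxin alpha, and engages the inhibitory receptor Btla. It was 439.2, 345.1 and 340.8 in isotype and 409.1, 513.9 and 382.7 in dICB. The Dexa groups had 473.2, 520.4 and 333.5 at 10 mg, and 443.1, 741.1 and 580.6 at 200 mg. Against isotype the 200 mg samples were all higher, with a narrow gap between 443.1 and 439.2. The log2 fold change was 0.65 ± 0.24 (edgeR adjusted p of 0.0867). Its ligands were at background: Tnfsf14 was above the limit in 3 samples and Lta in 2, both of the latter with Dexa at 200 mg. Lta was 25.56, 23.95 and 32.13 there and 7.838 to 23.84 in the other 9 samples. The 200 mg values were above all the others, at counts near the limit, and Lta was not tested.

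**Figure D3:**
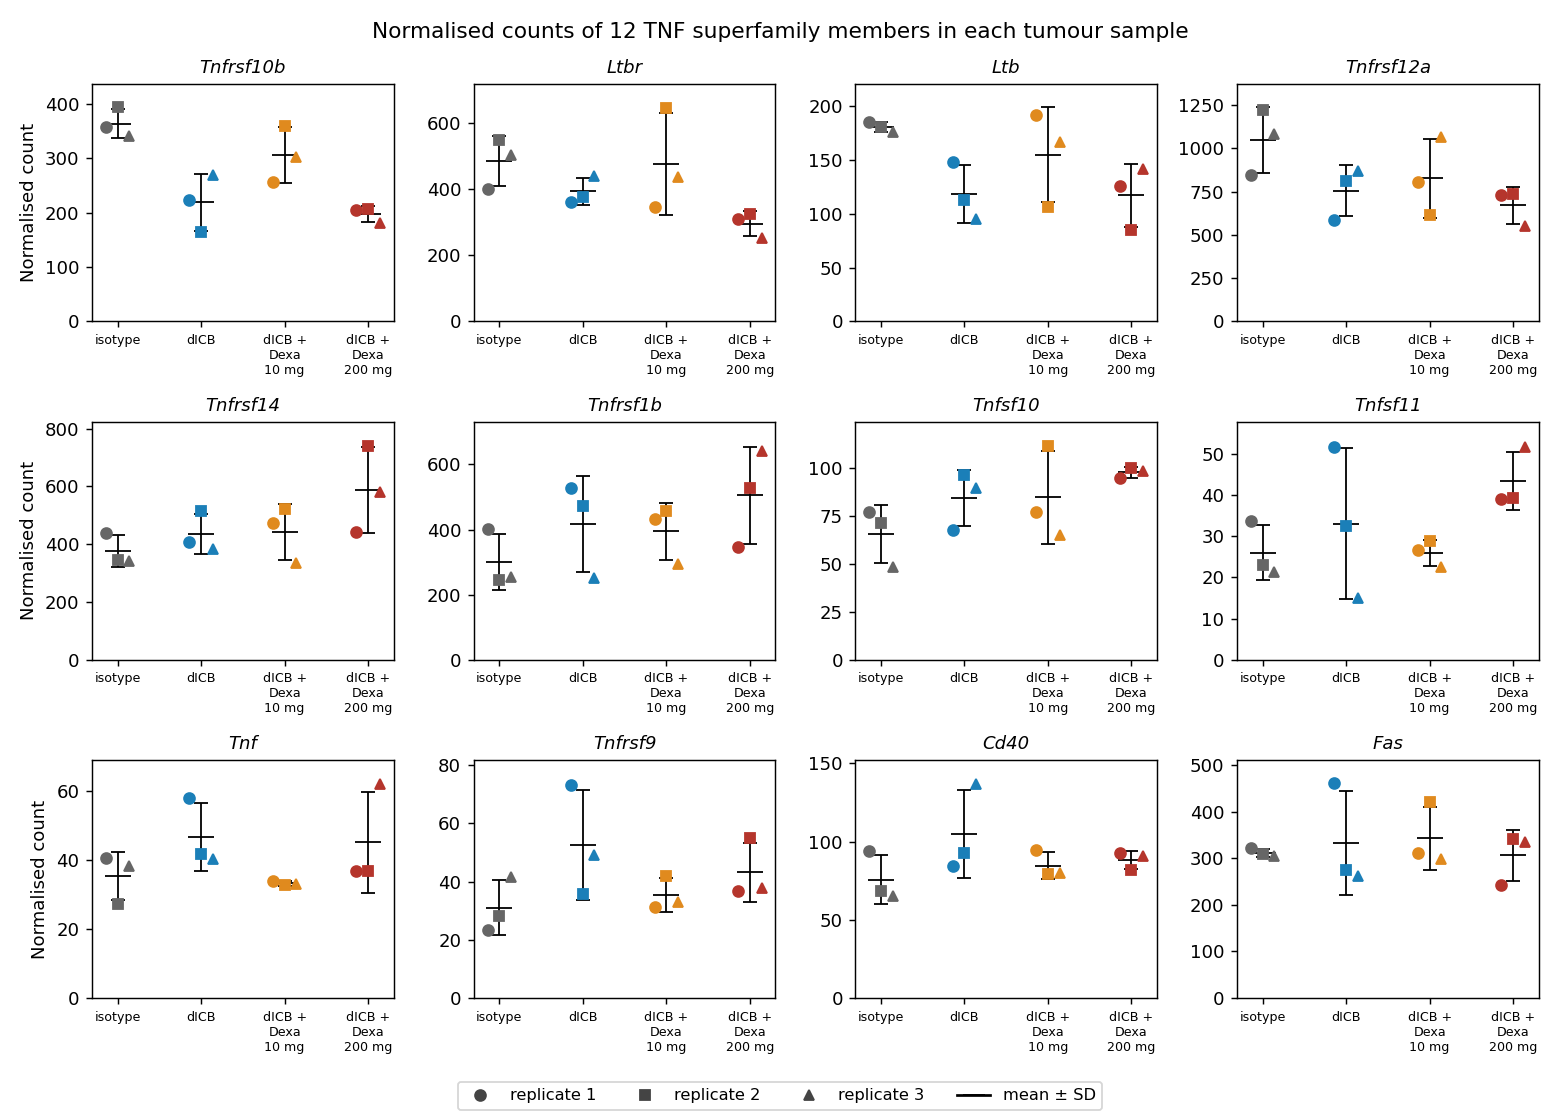
Normalised counts of 12 members in each sample, on axes that start at 0. Points are samples, with the shape giving the replicate number, and horizontal marks and bars are the group mean and SD of 3 samples. Tnfrsf10b, Ltbr, Ltb and Tnfrsf12a are lower with Dexa at 200 mg than in isotype without overlap, and Tnfrsf14, Tnfsf10 and Tnfsf11 are higher without overlap.

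TWEAK (Tnfsf12) and its receptor Tnfrsf12a act in tissue injury and repair. The receptor was 843.7, 1220 and 1081 in isotype and 587.4, 809.6 and 866.8 in dICB. Under Dexa it was 803.3, 612.6 and 1066 at 10 mg, and 729.4, 735.5 and 549.6 at 200 mg. The 200 mg samples were all below the isotype samples, and the other groups overlapped with isotype. From isotype to Dexa at 200 mg the log2 fold change of Tnfrsf12a was -0.64 ± 0.24 (edgeR adjusted p of 0.0912). Tnfsf12 was 46.55 in 10 mg sample 2 and 70.05 to 101.4 in the others, and its group means did not differ beyond the spread in any comparison.

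RANK ligand (Tnfsf11), its receptor Tnfrsf11a and the soluble decoy osteoprotegerin (Tnfrsf11b) are best known from bone. The ligand was 33.78, 23.07 and 21.3 in isotype, and 39.2, 39.45 and 51.63 with Dexa at 200 mg. In dICB it was 51.7, 32.58 and 14.89, and at 10 mg 26.59, 28.86 and 22.64. The 200 mg samples were above all isotype and all 10 mg samples, with all 3 over the limit, against 1 of 3 in isotype. The log2 fold change of Tnfsf11 between Dexa at 200 mg and isotype was 0.73 ± 0.35 (edgeR adjusted p of 0.166), and from dICB to 200 mg 0.35 (0.77 without dICB sample 1).

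Osteoprotegerin was 28.15, 32.51 and 59.41 in isotype and 31.2, 21.18 and 17.87 in dICB. Added Dexa gave 24.76, 28.86 and 33.09 at 10 mg and 27.27, 16.91 and 20.65 at 200 mg. It was above the limit in all isotype samples, in 1 dICB sample, in no 10 mg sample and in 1 at 200 mg, with isotype sample 3 far above the rest. From isotype to Dexa at 200 mg the log2 fold change of Tnfrsf11b was -0.85 ± 0.32 (edgeR adjusted p of 0.0916), and -0.48 without isotype sample 3. Tnfrsf11a was the steadiest member within groups, with an SD of 0.152 on the log2 scale, and ranged from 44.11 to 61.96.

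Receptors that costimulate T cells were mostly near background. Tnfrsf9 was 23.46, 28.32 and 41.48 in isotype and 73.09, 35.84 and 49.15 in dICB. With Dexa it was 31.18, 41.9 and 33.09 at 10 mg, and 36.64, 54.95 and 37.86 at 200 mg. The groups overlapped, and the highest value was that of dICB sample 1. From isotype to dICB its log2 fold change was 0.77 ± 0.30 (edgeR adjusted p of 0.181), and 0.42 without that sample.

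Tnfrsf18 was 43.17, 36.71 and 44.84 in isotype and 43.68, 43.17 and 16.38 in dICB, where sample 3 was the lowest of all. It was 29.34, 50.27 and 35.71 with Dexa at 10 mg, and 34.08, 46.5 and 49.34 at 200 mg. Tnfrsf4 was 21.58, 22.03 and 32.51 in isotype, and 32.98, 33.39 and 19.36 in dICB. At 10 mg it was 30.26, 16.76 and 15.68, and at 200 mg 22.15, 23.95 and 30.98. Neither differed between any groups beyond the spread, and all groups overlapped for both.

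Cd27 was 36.6, 23.07 and 39.23 in isotype, and 22.28, 35.84 and 28.3 in dICB. With Dexa it was 37.6, 27.93 and 33.09 at 10 mg, and 21.3, 39.45 and 44.75 at 200 mg. Its groups overlapped in each comparison. The ligands of these receptors were low too: Cd70 exceeded the limit in 1 sample, and Tnfsf18 in none. Tnfsf4, the ligand of Tnfrsf4, was the exception and the most variable member, with a within-group SD of 0.612 on the log2 scale.

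Tnfsf4 was 142.6, 241.2 and 247.7 in isotype, and 119.4, 111.6 and 146.0 in dICB. At 10 mg it was 160.5, 52.14 and 213.4, and at 200 mg 144.0, 88.76 and 101.0. The 10 mg sample 2 was the lowest of all 12, and isotype sample 1 kept the groups from separating. Between Dexa at 200 mg and isotype its log2 fold change was -0.91 ± 0.42 (edgeR adjusted p of 0.149). Without 10 mg sample 2, which belongs to neither group but adds to the shared estimate of spread, it was -0.94 with an edgeR adjusted p of 0.0308.

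The sum of 9 T cell genes ran from 724.7 to 964.7 in isotype, 550.9 to 1170 in dICB, 636.8 to 857.8 at 10 mg and 742.2 to 1271 at 200 mg, and each gene exceeded the limit in some sample. The 4 NK cell genes, of which Klrb1c never exceeded it, summed to 185.6 to 191.4, 148.0 to 246.0, 143.4 to 198.1 and 218.1 to 273.1 in the same order. All groups overlapped in the T cell sum, as they did for the costimulatory receptors.

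Cd40, the receptor through which helper T cells license antigen-presenting cells, was above the limit throughout. It was 93.85, 68.17 and 65.02 in isotype, and 84.68, 92.85 and 137.0 in dICB. With Dexa it was 94.45, 79.14 and 80.12 at 10 mg, and 92.88, 81.72 and 90.64 at 200 mg. All groups overlapped, and dICB sample 3 was the highest. From isotype to dICB its log2 fold change was 0.46 ± 0.23 (edgeR adjusted p of 0.298), and 0.29 without dICB sample 3. Cd40lg, its ligand, exceeded the limit in no sample. The sum of 5 dendritic cell genes (Flt3 and Lamp3 never above the limit) was 177.3 to 206.3 in isotype, 216.6 to 255.8 in dICB, 233.8 to 284.0 at 10 mg and 232.9 to 326.9 at 200 mg. Its part in the Cd40 values was not tested.

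Receptors of the B cell survival factors were at background. Tnfrsf13c and Tnfrsf17 exceeded the limit in no sample and Tnfrsf13b in 1. Tnfrsf13b was 24.4, 27.27 and 34.75 in isotype, and 16.04, 22.81 and 13.4 in dICB. With Dexa it was 22.92, 25.14 and 22.64 at 10 mg, and 24.71, 22.54 and 26.39 at 200 mg. Its dICB samples were all below the isotype samples, with a log2 fold change of -0.68 ± 0.23 (edgeR adjusted p of 0.137), but none of the 6 counts exceeded its limit. Of the ligands, Tnfsf13b (BAFF) exceeded the limit in 11 samples and ranged from 28.68 to 63.31, and Tnfsf13 (APRIL) did so in 1. Tnfsf13b was 36.64, 31.0 and 28.68 with Dexa at 200 mg, below its 43.1, 63.31 and 38.32 at 10 mg. That log2 fold change was -0.58 ± 0.27 (edgeR adjusted p of 0.407). Among 8 B cell genes 5 exceeded the limit in no sample, Cd79a, Cd79b, Blk and Pax5 among them, and the sums were 156.7 to 183.5, 162.3 to 196.3, 147.2 to 197.2 and 154.2 to 214.2 from isotype to 200 mg.

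Tnfsf15, a ligand made by endothelial and myeloid cells, exceeded the limit in 5 samples. It ranged from 12.1 in 10 mg sample 2 to 39.42 in isotype sample 1. Sums of 6 endothelial genes, each above the limit in some sample, were 467.4 to 598.7 in isotype, 560.0 to 629.3 in dICB, 391.0 to 487.7 at 10 mg and 407.2 to 610.4 at 200 mg. The remaining pair, Tnfsf8 and its receptor Tnfrsf8, was at background in all samples, at 5.502 to 15.68 and 8.454 to 20.85.

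Single samples accounted for many of the extremes. Sample 2 of the 10 mg group was the highest of 12 for 6 of 26 members (23.1%, against 13.7% of all genes): Cd70, Tnfsf10, Tnfsf13b, Ltbr, Tnfrsf18 and Tnfrsf1a. It was the lowest for 4 (15.4%, against 21.1%): Tnfsf12, Tnfsf14, Tnfsf15 and Tnfsf4. dICB sample 1 was the highest for 4 (15.4%, against 13.5%), Tnfsf11, Tnfsf14, Fas and Tnfrsf9, and the lowest for 0. Sample 3 of the 200 mg group was the highest for 4 (15.4%, against 16.4%), Tnf, Cd27, Tnfrsf11a and Tnfrsf1b, and the lowest for 3 (11.5%, against 12.3%), Tnfsf13b, Ltbr and Tnfrsf12a. Members varied within groups about as much as the panel, with a median SD of 0.328 on the log2 scale against 0.323. With 10 mg sample 2 and dICB sample 1 left out, 5 members (19.2%, beside 26.9% of all genes in that fit) passed between Dexa at 200 mg and isotype, all lower: Ltb, Ltbr, Tnfrsf10b, Tnfrsf12a and Tnfsf4. Their log2 fold changes ranged from -0.94 for Tnfsf4 to -0.65 for Ltb, with edgeR adjusted p from 0.00898 to 0.0374. With TMM scaling kept, the direction of these 5 was that of the full set.

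**Figure D4:**
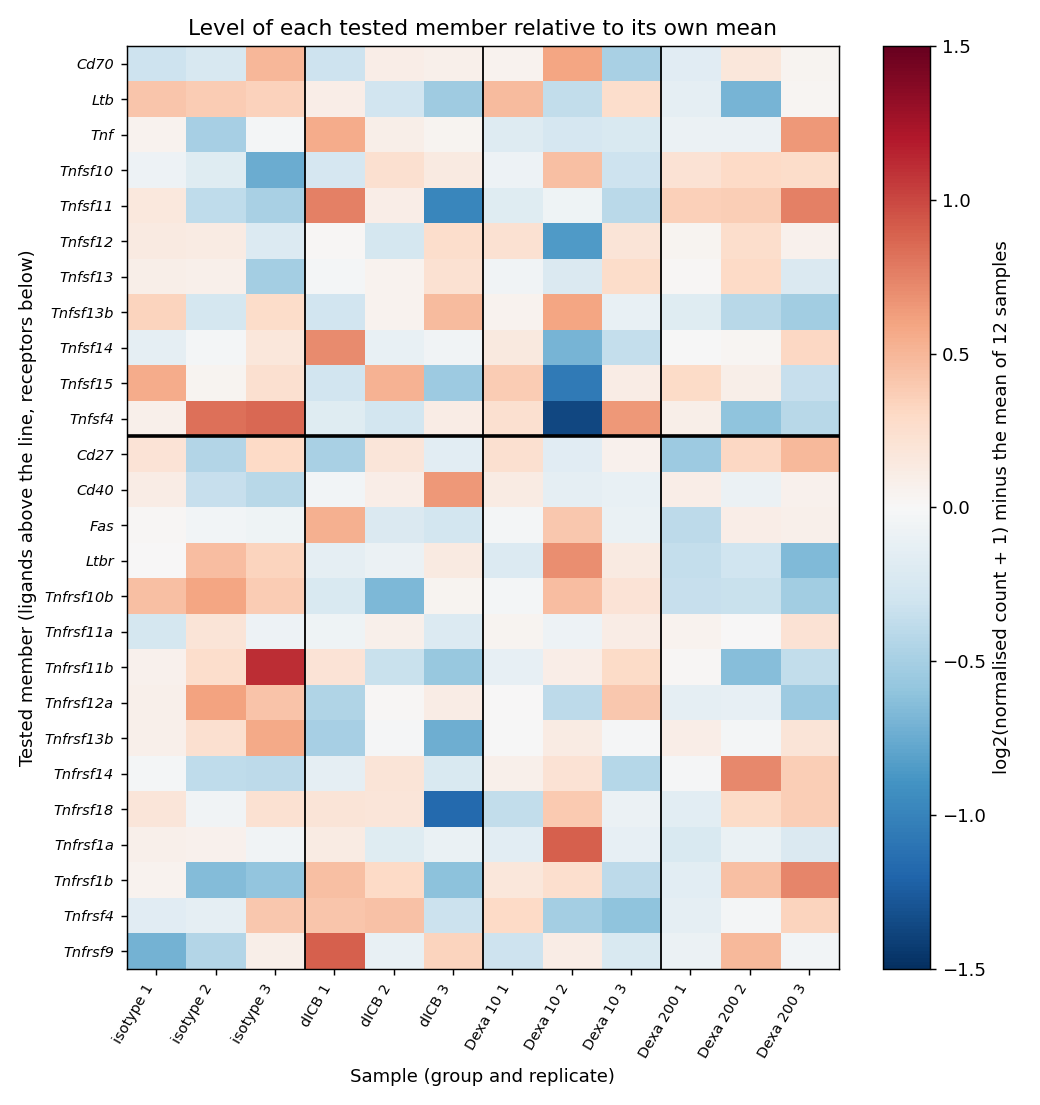
Level of 26 tested members in each sample, as log2 of the normalised count plus 1 minus the member's mean over 12 samples. Rows are ligands above the line and receptors below it, and columns are samples by group. Tnfrsf10b is red in the 3 isotype columns and blue in the 3 columns at 200 mg, and 10 mg sample 2 holds the deepest blue (Tnfsf4).

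With TMM scaling, genes that carry the signal inside the cell mostly had lower levels than isotype in each group given dICB. Of 41 listed signalling genes, 28 were on the panel and tested. Between Dexa at 200 mg and isotype 3 fell and 0 rose past the threshold (10.7%, beside 13.2% of all genes). The median log2 fold change of the 28 was -0.44, beside 0.03 over all genes, and 26 of 28 (92.9%) had a negative fold change, beside 307 of 635 (48.3%) of all genes. Against isotype, 20 of the 28 were also lower in dICB (306 of 635 of all genes) and 24 at 10 mg (338 of 635). The medians there were -0.25 and -0.21, beside 0.03 and -0.03 over all genes. The lower level was not particular to them: 19 of 20 housekeeping genes were also lower between Dexa at 200 mg and isotype, with a median of -0.56. Signalling genes that fell past the threshold included Fadd, the death domain adaptor, and Nfkb2, the non-canonical NF-kB precursor. Fadd was 73.2, 104.9 and 91.92 in isotype and 57.09, 50.72 and 45.89 with Dexa at 200 mg, a log2 fold change of -0.81 ± 0.22 (edgeR adjusted p of 0.0302). Nfkb2 was 936.6, 1057 and 975.3 in isotype against 628.0, 545.3 and 528.9, a log2 fold change of -0.80 ± 0.22 (edgeR adjusted p of 0.0335). For both genes every 200 mg sample was below every isotype sample.

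These calls depended on the scaling and on single samples. With housekeeping factors 0 of the 28 passed, beside 166 of all genes. Of the 28, 8 were then lower and the median was 0.11, beside 0.55 over all genes. With positive control factors 0 passed, beside 57 of all genes, and 17 were lower. None passed without isotype sample 2 or 3, beside 9 and 0 of all genes, or without 200 mg sample 2 or 3, beside 11 and 11. Without 200 mg sample 1, 2 passed, beside 50 of all genes, Fadd among them (edgeR adjusted p of 0.0453). With the code as a covariate 1 passed, beside 29 of all genes, and neither Fadd (edgeR adjusted p of 0.117) nor Nfkb2 (0.0636) did. Without 10 mg sample 2 alone 8 passed, beside 136 of all genes. Without that sample and dICB sample 1 the number was 9 (32.1%, beside 26.9% of all genes). Those passing were all lower in both fits. In the other comparisons 0 of the 28 passed (0% of all genes in each), with medians from -0.25 between dICB and isotype to -0.004 from dICB to Dexa at 10 mg. At an unadjusted p under 0.05 between dICB and isotype, 1 was higher and 4 were lower (17.9%, beside 20% of all genes).

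Genes induced through NF-kB did not follow a single direction across the comparisons. Of 20 listed, 18 were on the panel and 16 were tested. Between Dexa at 200 mg and isotype 1 of the 16 fell past the threshold (Nfkb2) and 0 rose, beside 13.2% of all genes called. The median log2 fold change was -0.01, beside 0.03 over all genes. From isotype to dICB 0 of the 16 passed (0% of all genes). The median was 0.47, beside 0.03 over all genes, and became -0.04 without dICB sample 1. From dICB to Dexa at 10 mg 0 passed (0% of all genes). The median was -0.54, beside -0.01 over all genes, and became 0.25 without dICB sample 1. From dICB to Dexa at 200 mg 0 passed (0% of all genes), and 13 of the 16 were lower, beside 337 of 635 of all genes. The median was -0.33, beside -0.02 over all genes, and became -0.05 without dICB sample 1. Tnfaip3, a feedback inhibitor of TNF signalling, was 727.3 in dICB sample 1 and 197.7 to 287.4 in the other 11 samples. The neutrophil sum of 18300 stood in the same sample, and its part was not tested.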

How the data were processed

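The files hold raw digital counts per probe for 12 tumour samples, as deposited, with whole numbers for 770 genes, 6 positive and 8 negative control probes. RNA was extracted from formalin-fixed tissue with a Qiagen miRNeasy FFPE kit, per the labels' protocols. Which instrument, panel or software the submitters used is not stated in the labels or files. Groups were read from the labels. Genes averaging 20 counts or more were kept, scaled by TMM and fitted together with edgeR 4.0.16 (R 4.3.3) in 1 quasi-likelihood model of 4 groups, with 7 tests (any difference and 6 pairwise) and Benjamini-Hochberg adjustment over 635 genes. Standard errors were derived from the fold change and its F statistic and are approximate. The common biological coefficient of variation was 28.3%. DESeq2 1.42.0 and limma 3.58.1, other scalings and filters, and left-out samples served as alternatives. The limma alternative first subtracted each sample's mean negative control count. It therefore differs from the main fit in background as well as in tool. Scripts were tested on simulated data.

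The members and the gene lists were chosen with earlier results of these data known. By rule, every member is named, and values in each sample are given for the 3 members of smallest p in each test and for Tnf, Cd40, Cd27, Fas, Tnfrsf4, Tnfrsf9 and Tnfrsf18. Those of Ltb, Lta, Tnfrsf1b, Tnfsf4 and Tnfsf13b were added after their values were seen. Samples were treated as unpaired. Same-numbered samples had correlations of -0.385 to 0.29 after removal of group means. Differently numbered samples were not set beside them, so pairing by replicate number was not excluded. Values of 1 signalling gene and 1 B cell gene are not reported here.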

Additional observations from a re-analysis of the deposited data

How the results depend on the processing

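Precision was limited by 3 samples per group and, for 20 members not above the limit in every sample, by background. Of 2022 values of 15 named members under the alternatives, 1819 kept direction and side of the threshold or moved within the spread, 177 moved beyond it, 19 came past the threshold and 7 fell short of it. The sign differed from the reported one in 158, none of them past the threshold in either setting. Leaving out both dICB replicate 1 and 10 mg replicate 2, and keeping only members above the limit everywhere, were chosen after seeing the data. In fits of 1 code, a lone sample is assumed to vary like the other groups. The cause of the differences below was not tested.

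Members called between 200 mg and isotype (1) became 2 with DESeq2, 5 with housekeeping factors, 0 with positive control factors, 2 with the code as covariate, 4 among ICI7 samples, 7 with only the groups compared and 5 without both samples, and 0 to 4 when single samples were left out. All genes called there (84) became 166 with housekeeping factors, 29 with the covariate, 151 among ICI7, 180 with only those groups and 170 without both samples (0 to 136 without single samples). DESeq2 gave 122 and positive control factors 57. The split of 39 higher and 45 lower became 161 and 5 with housekeeping factors, 55 and 2 with positive control factors, and 64 and 58 with DESeq2. The 5 members called with housekeeping factors were all higher, and Tnfrsf10b was not among them. Over all 4 groups, DESeq2 or leaving out both samples called 1 member. All genes (5) became 71 with DESeq2, 33 with housekeeping and 17 with positive control factors, 8 at a mean of 50, 0 with limma or the covariate and 47 without both samples (0 to 44 without single samples). Between dICB and isotype DESeq2 and housekeeping factors each called 1 member (0 in the others). All genes (0) became 31, 45, 4 with positive control factors, 2 without a filter and 10 without both samples (0 to 45 without single samples). For 10 mg against dICB leaving out single samples gave 0 to 1 genes, and for 200 mg against dICB 0 to 8, with 3 by DESeq2. Between the doses 7 genes were called among ICI7 and 2 without both samples, and between 10 mg and isotype DESeq2 called 4. With the replicate number as a block, 1 member was called between 200 mg and isotype, as without it, and all genes called were 10 over the 4 groups, 1 for dICB against isotype and 1 for 200 mg against dICB.

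Ligand medians (log2) moved as follows, where limma stands for limma after subtraction of the negative control mean. A mean of 50 and the limit everywhere leave the same ligands and the same receptors, so their values repeat the same genes. Between dICB and isotype they were 0.42 with housekeeping and 0.11 with positive control factors, -0.27 at a mean of 50 and -0.31 for members above the limit everywhere (-0.040 to 0.10 without single samples). From dICB to 10 mg they were -0.26, 0.10, 0.050 and 0.093, by housekeeping factors, positive control factors, a mean of 50 and members above the limit, -0.36 with the covariate and -0.30 among ICI10 (-0.21 to 0.11). From dICB to 200 mg they were 0.18 with positive control factors and 0.20 with limma. Between the doses they were 0.38 with housekeeping factors, -0.039 at a mean of 50, 0.43 with limma, -0.16 among ICI7, 0.37 among ICI10, -0.10 without both samples and -0.079 for members above the limit (-0.094 to 0.17). Between 10 mg and isotype they were 0.16 and 0.19 with housekeeping and positive control factors. Between 200 mg and isotype they were 0.62 and 0.39 with those, -0.24 at a mean of 50, 0.52 with limma and -0.26 for members above the limit (-0.028 to 0.16). Receptor medians between dICB and isotype were 0.37 and 0.042 with housekeeping and positive control factors (-0.18 to 0.12). From dICB to 10 mg they were -0.070 and 0.27 with those and 0.26 among ICI10 (-0.086 to 0.21). From dICB to 200 mg they were 0.059 with positive control factors, 0.13 with limma and 0.057 without both samples (-0.15 to 0.064). Between the doses they were 0.33 with housekeeping factors, -0.15 at a mean of 50, -0.073 among ICI10 and -0.16 for members above the limit. Between 10 mg and isotype they were 0.28 and 0.29 with housekeeping and positive control factors, 0.15 at a mean of 50, 0.13 with limma, -0.15 among ICI7, -0.16 without both samples and 0.14 for members above the limit (-0.16 to 0.10). Between 200 mg and isotype they were 0.57 and 0.36 with those factors, 0.26 with limma and 0.22 among ICI7 (-0.14 to 0.10).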
